A study of Mus musculus with 6 samples.

Results

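Fatty acid desaturases put double bonds into acyl chains and elongases lengthen them by 2 carbons at a time, and 10 mouse genes of these families are described here in the livers of Fah-deficient mice. They are the stearoyl-CoA desaturases Scd1 and Scd2, the front-end desaturases Fads1 and Fads2, and the elongases Elovl1, Elovl2, Elovl3, Elovl5, Elovl6 and Elovl7. The genes were taken by name from the platform annotation of the array, with the probe set of highest mean log2 signal over the 6 arrays standing for each gene, among 34472 probe sets in all. All 10 genes had a probe set and no second one was counted. Where a gene had a probe set of its symbol alone, probe sets shared with other genes were not counted. For 9 the probe set carries that gene's symbol alone, whereas the probe set of Scd2 is annotated jointly to Scd2 and to Mir5114, a microRNA gene next to it, and is called the Scd2/Mir5114 probe set below.

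The withdrawal group (3 arrays) came from mice that were taken off NTBC at 11 weeks of age and sampled 7 days later. In the continuous group (3 arrays) the drug was never stopped. NTBC (nitisinone) inhibits the enzyme encoded by Hpd, upstream of the step catalysed by the Fah product, and was given at 8 mg/l in drinking water with 3% dextrose; whether the dextrose went on after withdrawal is not given in the labels. All mice were males of the FAH5981SB line on the C57Bl/6J background, carried a Fah point mutation at the end of exon 8 that gives a truncated, unstable protein, ate a chow low in tyrosine and phenylalanine and were 12 weeks old at sampling. No Fah wild-type liver enters the comparison, and since the replicates are labelled biological but no label ties an array to a particular animal, p-values measure the spread among these 6 samples alone. Values are log2 signals. A change is the withdrawal mean minus the continuous mean, and it passed when limma's p-value, adjusted by Benjamini-Hochberg over all 34472 probe sets, was under 0.05.

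Desaturation and elongation take place on acyl-CoA at the endoplasmic reticulum. Stearoyl-CoA desaturases make monounsaturated from saturated chains, and Scd1 is the main form of the adult mouse liver. Fads2, Elovl5, Fads1 and Elovl2 act in that order on linoleic and alpha-linolenic acid on the way to long-chain polyunsaturated fatty acids. Elovl6 extends palmitate to stearate, and Elovl1, Elovl3 and Elovl7 act on longer saturated and monounsaturated chains. SREBP-1c and LXR are known to drive several of these genes in liver, and Elovl3 is also known there as a male-biased gene with a daily rhythm.

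After withdrawal, 5 of the 10 members were lower, 2 were higher and 3 did not pass. Elovl3, Scd1, Fads1, Elovl5 and Fads2 fell, and the Scd2/Mir5114 probe set and Elovl7 rose. Elovl1, Elovl2 and Elovl6 did not pass. Of all probe sets 9.40% passed in either direction (3.20% lower and 6.21% higher), and 3.42% passed with at least a 2-fold change, as 5 members did. The share of higher ones among all calls was 66.0% as deposited and 77.2% with each array centred on its median. The median change was -0.52 over the 10 members, beside -0.08 over all probe sets. The arrays of the groups did not overlap for 8 members (5 lower and 3 higher), against 27.6% of all probe sets (13.7% lower and 13.9% higher). The 5 falls passed without any 1 of the 6 arrays, with array-wise centring and with quantile normalization.

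**Figure D1:**
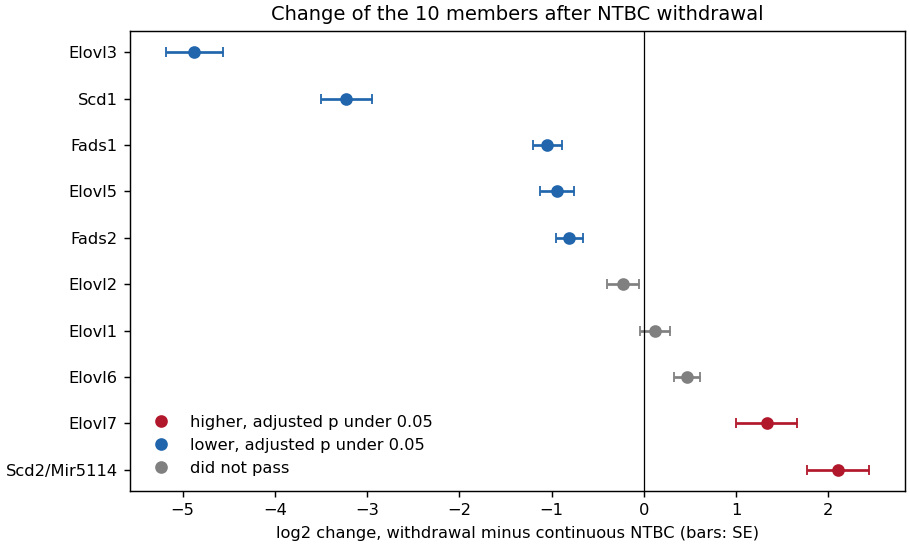
Log2 change (withdrawal minus continuous NTBC, horizontal axis) of the 10 members, ordered from the lowest to the highest, with bars of 1 SE. Elovl3 at -4.88 and Scd1 at -3.23 lie far to the left of the other falls, which run from -1.05 to -0.81, and the Scd2/Mir5114 probe set lies furthest to the right at 2.11.

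Among the stearoyl-CoA desaturases, Scd1 and the Scd2/Mir5114 probe set moved in opposite directions. Scd1 had log2 signals of 9.26, 9.86 and 8.79 on the withdrawal arrays, against 12.68, 12.09 and 12.82 on the continuous arrays. The highest withdrawal array of Scd1 was still more than 2 log2 units under the lowest continuous array. The change was -3.23 (SE 0.27, adjusted p = 8.42e-05, limma), a 9.36-fold lower signal and the 20th lowest change of the 34472 probe sets. In whole liver, less RNA per cell and fewer cells that express a gene cannot be told apart.

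The Scd2/Mir5114 probe set had 8.77, 9.14 and 7.58 on the withdrawal arrays, against 6.54, 6.08 and 6.55 on the continuous arrays. All 3 withdrawal arrays were higher, with replicate 3 closest to the continuous group. Its change was 2.11 (SE 0.34, limma adjusted p = 0.00361), which is 4.31-fold, and it ranged from 1.79 to 2.57 when any 1 array was left out. Scd2 is the stearoyl-CoA desaturase best known from brain and from fetal and newborn tissues, and the probe set cannot assign the signal between Scd2 and Mir5114.

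Scd3 borders Scd2, and Scd4 borders Scd1, on chromosome 19 in the mouse gene table (GRCm38.p6). Scd3 averaged 5.02 ± 0.17 after withdrawal and 5.20 ± 0.14 with continuous NTBC (SD, n = 3 each), and Scd4 averaged 4.27 ± 0.37 after withdrawal and 4.80 ± 0.29 with continuous NTBC. Neither passed (changes of -0.18 and -0.52, limma adjusted p = 0.528 and 0.175), and both paralogs had low signals. Transcripts of this family are alike in sequence and may bind each other's probes.

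Scd1 and Scd2/Mir5114 were also compared within arrays, where the fixed offset between 2 probe sets cancels in the group difference. The log2 signal of Scd1 minus that of Scd2/Mir5114 was 0.49, 0.72 and 1.21 after withdrawal, against 6.14, 6.01 and 6.27 with continuous NTBC. The difference between the groups was -5.33, with no overlap between the arrays. The exact two-sided permutation test gave p = 0.1 (0.1 adjusted over the 3 pairs tested), the smallest value that 3 against 3 arrays allow. Scd1 was lower and Scd2/Mir5114 higher on every withdrawal array, which fixed this outcome in advance. The test therefore adds nothing to the signals given above.

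**Figure D2:**
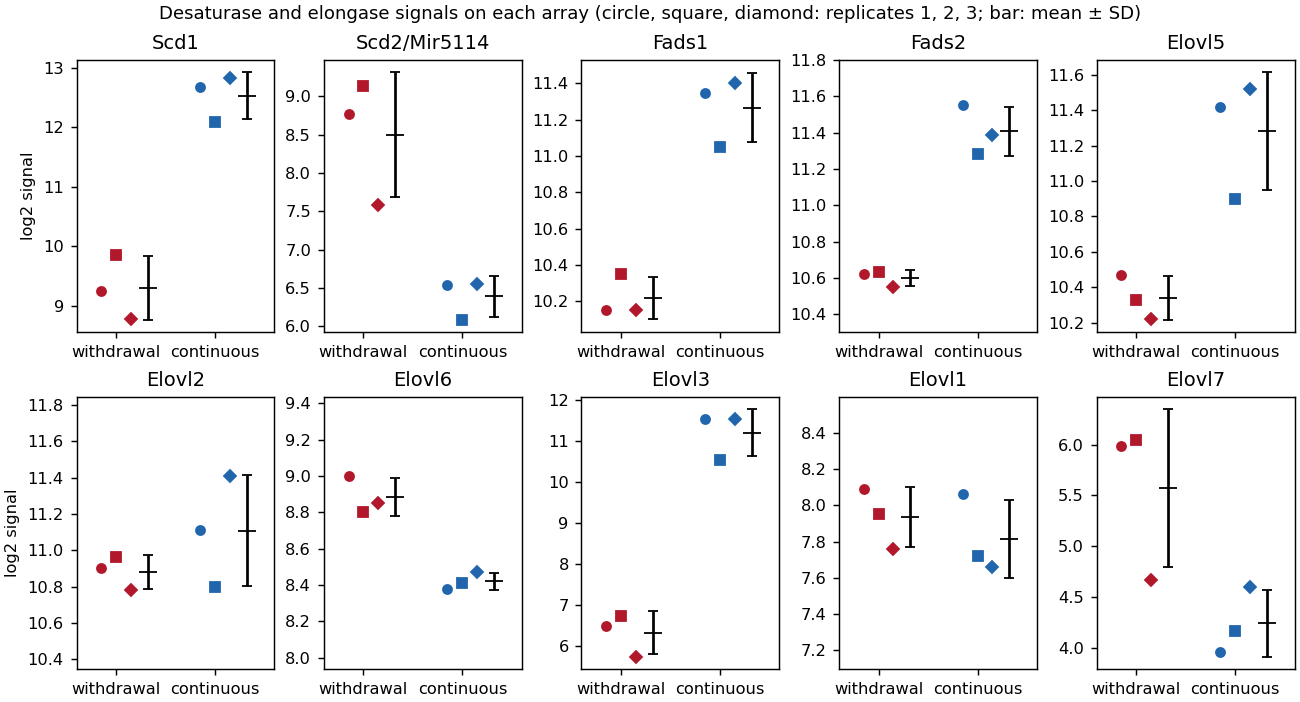
Log2 signal (vertical axis, a separate scale in each panel) of the 10 members on each of the 3 withdrawal and 3 continuous arrays, with the mean and SD of each group as bars. The groups are apart for 8 members and overlap for Elovl1 and Elovl2, and withdrawal replicate 3 of Elovl7, at 4.67, lies just above the highest continuous array, at 4.60.

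The polyunsaturated branch was lower at 3 of its 4 members. Fads1, the delta-5 desaturase, had 10.15, 10.35 and 10.15 on the withdrawal arrays, against 11.35, 11.05 and 11.40 on the continuous arrays. Its withdrawal arrays lay within 0.20 of each other, and the change was -1.05 (SE 0.16, limma adjusted p = 0.00244), which is 2.07-fold lower.

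Fads2, the delta-6 desaturase that opens the pathway, had 10.62, 10.63 and 10.55 after withdrawal, against 11.55, 11.28 and 11.39 with continuous NTBC. The 3 withdrawal arrays differed by 0.08 at most and all lay below the continuous arrays. Fads2 fell by 0.81 on the log2 scale (SE 0.14, limma adjusted p = 0.00644), a 1.75-fold lower signal. Elovl5, the elongase between the 2 desaturation steps, had 10.47, 10.33 and 10.22 after withdrawal, against 11.42, 10.90 and 11.52 with continuous NTBC. Continuous replicate 2 was the lowest of its group and still above every withdrawal array of Elovl5. The change of Elovl5 was -0.94 (SE 0.19, limma adjusted p = 0.0108), or 1.92-fold lower.

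Elovl2, which extends long polyunsaturated chains, overlapped between the groups. It had 10.90, 10.96 and 10.78 after withdrawal, against 11.11, 10.80 and 11.41 with continuous NTBC. The change of -0.23 (SE 0.18) did not pass (limma adjusted p = 0.481). The range of Elovl2 within the continuous group, 0.61, was larger than its change.

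Fads1, Fads2 and Fads3 form a cluster on chromosome 19. Fads3, the third gene of it, averaged 6.48 ± 0.08 after withdrawal and 6.55 ± 0.08 with continuous NTBC (SD, n = 3 each) and did not pass (change -0.07, limma adjusted p = 0.815). Between its neighbours, the within-array signal of Fads1 minus that of Fads2 was -0.47, -0.28 and -0.40 after withdrawal, against -0.20, -0.23 and 0.01 with continuous NTBC. The group difference of -0.24 came with an exact two-sided permutation p = 0.1, again the smallest possible.

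Promoter windows show what sequence lies before the starts of 2 members that fell together. These are the 250 bases upstream of the RefSeq start (GRCm38.p6), Fads2 at chr19:10101504-10101753 on the minus strand and Elovl5 at chr9:77917115-77917364 on the plus strand, each 5′ to 3′ with matches to the motifs searched in capitals.
Fads2: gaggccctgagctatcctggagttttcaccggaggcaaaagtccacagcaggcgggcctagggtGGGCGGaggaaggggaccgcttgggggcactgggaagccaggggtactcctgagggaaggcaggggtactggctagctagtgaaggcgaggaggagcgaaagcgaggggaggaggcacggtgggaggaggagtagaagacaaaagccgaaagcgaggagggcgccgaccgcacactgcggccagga
Elovl5: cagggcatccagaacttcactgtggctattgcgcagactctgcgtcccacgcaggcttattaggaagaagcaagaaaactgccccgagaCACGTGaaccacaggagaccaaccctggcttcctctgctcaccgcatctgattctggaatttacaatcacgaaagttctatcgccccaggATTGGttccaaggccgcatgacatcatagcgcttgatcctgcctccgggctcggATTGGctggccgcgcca
In Elovl5 the capitals are an E-box and 2 CCAAT boxes on the opposite strand, and in Fads2 they are 1 GC box. The window holds 64.8% G and C in Fads2 and 55.6% in Elovl5, beside a median of 52.4% over all windows.

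Both strands were searched for 8 motifs in the 32851 promoter windows available, which do not cover every gene. The CCAAT box (CCAAT) was in 33.8% of them, the GC box (GGGCGG) in 32.7%, the E-box (CACGTG) in 6.02%, the core of the antioxidant response element (TGACNNNGC) in 10.2% and the STAT5 site (TTCNNNGAA) in 7.02%. The sterol regulatory element (TCACNCCAC) was in 1.05%, the LXR repeat (AGGTCA, 4 bases, AGGTCA) in 0.0152% and the PPAR repeat (AGGTCA, 1 base, AGGTCA) in 0.0335%. Windows were given for 6 members (8 windows, since Elovl1 and Elovl2 have 2 starts each), of which 5 windows held a GC box, 2 a CCAAT box and 1 an E-box. The other 5 motifs matched in none of the 8, which says only that these letters are not in these windows. No window was available for Scd1, Scd2, Fads1 and Elovl3, so they were not analysed in this way.

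Elovl3 had the largest change of the members. Its log2 signals were 6.50, 6.75 and 5.75 on the withdrawal arrays, against 11.53, 10.55 and 11.55 on the continuous arrays. The groups were far apart, and all 3 withdrawal signals of Elovl3 stayed above the medians of their arrays, 5.21 to 5.39. The change was -4.88 (SE 0.31, limma adjusted p = 1.65e-05), a 29.4-fold lower signal and the 6th lowest change of all 34472 probe sets. Of 12 other male-biased liver genes measured, 9 were lower and none higher, with a median change of -2.04, against 3.20% of all probe sets lower. The 3 with the smallest p-values were Slco1a1 (-5.81), Hsd3b5 (-6.62) and C6 (-2.83), while the male-biased genes Cyp4a12a (-0.02) and Mup20 (0.08) did not pass. This list was chosen with earlier results of these arrays known and is no independent evidence of a direction.

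Clock genes are given beside Elovl3 because of its daily rhythm, and no source used here gives the hour of sampling. Of 16 measured, 3 were lower, 2 higher and 11 did not pass, with a median of -0.10. Over all probe sets 3.20% were lower and 6.21% higher. The clock repressor Nr1d1 (-2.26, limma adjusted p = 1.64e-04), the output factor Dbp (-1.58) and the repressor Bhlhe40 (-1.21) fell, and the repressors Cry1 (1.12) and Cry2 (0.83) rose. The core activators Arntl (0.56) and Clock (0.24) did not pass. The Cry2 call was lost without withdrawal replicate 1, withdrawal replicate 2 or continuous replicate 3 (highest adjusted p = 0.0916). The part of sampling time in the Elovl3 result was not tested.

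Elovl6 was higher on every withdrawal array, yet its change did not pass. It had 9.0, 8.80 and 8.85 after withdrawal, against 8.38, 8.41 and 8.47 with continuous NTBC. The change was 0.46 (SE 0.14, limma adjusted p = 0.0704). It passed with each array centred on its median (0.56, adjusted p = 0.0473), without dim probe sets (adjusted p = 0.0341), with array weights (0.0291) and with limma's trend and robust options (0.0369). It did not pass with quantile normalization (adjusted p = 0.264), the replicate number as a block (0.0987), 1-symbol probe sets only (0.0549) or any 1 of the 6 arrays left out (0.0956 to 0.293). Elovl6 makes stearate, a substrate of Scd1, from palmitate.

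The change of Elovl6 was also set against that of Elovl5. Within arrays, the signal of Elovl6 minus that of Elovl5 was -1.47, -1.53 and -1.37 after withdrawal, against -3.04, -2.49 and -3.05 with continuous NTBC. The groups differed by 1.40 without overlap (exact two-sided permutation p = 0.1, the smallest possible). Elovl6 was higher and Elovl5 lower on every withdrawal array, so this outcome too was fixed in advance.

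**Figure D3:**
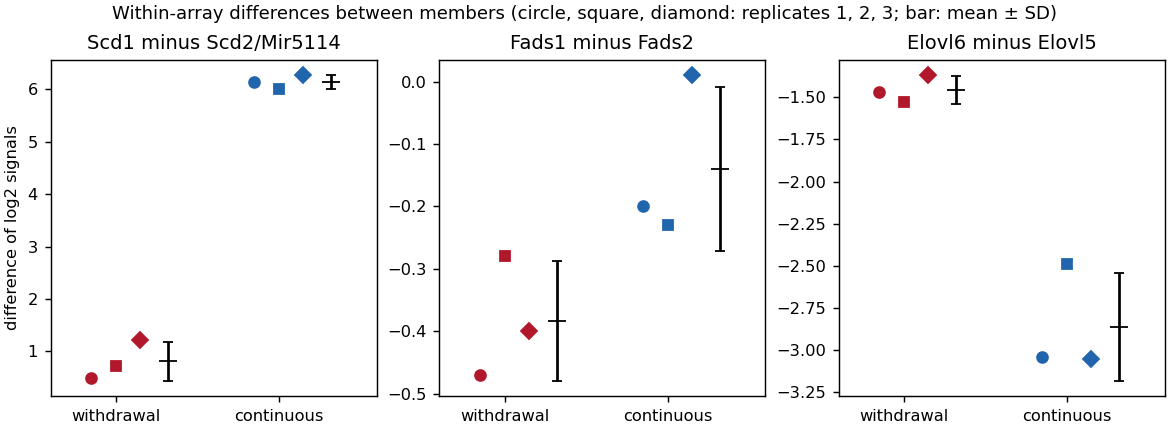
Difference of 2 members' log2 signals within each array (vertical axis, a separate scale in each panel) for 3 pairs, by group, with the mean and SD as bars. Only the shift between groups is read, since the offset between 2 probe sets has no meaning, and that shift is -5.33 for Scd1 minus Scd2/Mir5114, -0.24 for Fads1 minus Fads2 and 1.40 for Elovl6 minus Elovl5.

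Elovl7, an elongase of long saturated chains, was higher after withdrawal, with continuous signals below the medians of their arrays. It had 5.99, 6.05 and 4.67 on the withdrawal arrays, against 3.96, 4.16 and 4.60 on the continuous arrays. Withdrawal replicates 1 and 2 were clearly higher, and replicate 3 exceeded the highest continuous array by less than 0.1. The change was 1.33 (SE 0.33, limma adjusted p = 0.0330), which is 2.51-fold, and 1.25 with signals below the lower quartile of their array (4.03 to 4.26) raised to that quartile. Elovl7 no longer passed when withdrawal replicate 1 (adjusted p = 0.133), withdrawal replicate 2 (0.132), continuous replicate 1 (0.0691) or continuous replicate 2 (0.109) was left out.

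Elovl1, which makes the very long chains used for sphingolipids, overlapped between the groups, at 8.09, 7.95 and 7.76 after withdrawal against 8.06, 7.72 and 7.66 with continuous NTBC. Its change of 0.12 (SE 0.17, limma adjusted p = 0.709) had the opposite sign with quantile normalization (-0.07). The upstream windows of the 2 elongases with higher withdrawal signals on all arrays are shown for contrast, Elovl6 at chr3:129532136-129532385 and Elovl7 at chr13:108214154-108214403, both on the plus strand of GRCm38.p6 (RefSeq).
Elovl6: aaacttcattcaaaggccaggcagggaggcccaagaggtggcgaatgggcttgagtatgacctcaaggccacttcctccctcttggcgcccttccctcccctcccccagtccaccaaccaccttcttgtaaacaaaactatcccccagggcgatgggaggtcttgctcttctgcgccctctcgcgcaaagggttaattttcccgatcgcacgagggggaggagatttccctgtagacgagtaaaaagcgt
Elovl7: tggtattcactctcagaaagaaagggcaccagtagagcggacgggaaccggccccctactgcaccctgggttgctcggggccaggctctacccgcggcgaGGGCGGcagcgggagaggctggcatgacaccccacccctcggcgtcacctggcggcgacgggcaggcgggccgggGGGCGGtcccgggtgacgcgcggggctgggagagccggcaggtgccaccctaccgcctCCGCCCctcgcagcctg
The capitals in Elovl7 are 3 GC boxes, and no searched motif is in the Elovl6 window. The window holds 56.4% G and C in Elovl6 and 73.6% in Elovl7.

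The order of the arrays within a group was alike for most members. Withdrawal replicate 3 was the lowest of its group for 8 of the 10 members, those that fell and those that rose alike, whereas it was the lowest for 35.4% of all probe sets. Every hepatocyte and macrophage marker measured was also lowest on withdrawal replicate 3, so this order is not particular to the members. Withdrawal replicate 3 had the highest median of its group (5.39) and the lowest upper quartile (6.69, against 6.78 and 6.81). Continuous replicate 2 was the lowest of its group for 7 members, against 31.6% of all probe sets. Continuous replicate 3 was the highest for 8 members, against 34.0% of all probe sets. Within the withdrawal group the range over 3 arrays was widest for the Scd2/Mir5114 probe set (1.56), Elovl7 (1.38) and Scd1 (1.07), and narrowest for Fads2 (0.08).

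Some genes followed a member closely over the 6 arrays, measured as the root mean square (RMS) difference of log2 signals after each gene was centred on its own mean. Cps1, the first enzyme of the urea cycle, lay 0.03 from Fads1, with a change of -1.08. Gpr146, a G protein-coupled receptor, lay 0.04 from Fads2, and Gcdh, glutaryl-CoA dehydrogenase, 0.05. Aadat, an aminotransferase of lysine and tryptophan breakdown, was the other gene nearest Fads1 (0.08), and Errfi1, a feedback inhibitor of the EGF receptor, was nearest Elovl5 (0.09). Hal, which deaminates histidine, was nearest Scd1 (0.29), with a change of -2.71. Inmt, a methyltransferase, was nearest Elovl3 (0.36) with a change of -4.61, and Ces3b, a carboxylesterase, followed (0.44, change -4.93). Among the rises, Ddias was nearest the Scd2/Mir5114 probe set (0.23) and Spink1, a trypsin inhibitor, nearest Elovl7 (0.13). These distances are a description over 6 arrays, and a shared group difference makes up most of each profile.

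Among the enzymes that complete each elongation cycle, some of the dehydratases and the ketoreductase Hsd17b12 were higher. Elongation needs a ketoreductase, a dehydratase and an enoyl reductase after the condensation that an elongase catalyses. Of 14 measured enzymes of this kind and other desaturases and elongases, 5 were higher, none lower and 9 did not pass, with a median of -0.17. The shares over all probe sets were 6.21% higher and 3.20% lower. The dehydratase Hacd3 had 10.78 ± 0.05 after withdrawal and 9.36 ± 0.17 with continuous NTBC (SD, n = 3 each), a change of 1.42 (limma adjusted p = 3.01e-04). Hacd2, another dehydratase, rose by 1.15 and the ketoreductase Hsd17b12 by 0.76, and both passed without any 1 array. Degs1, the dihydroceramide desaturase, rose by 0.69 and the dehydratase Hacd1 by 0.59. The enoyl reductase Tecr (-0.44, adjusted p = 0.131) and the elongase Elovl4 (-0.32, adjusted p = 0.249) did not pass. Without withdrawal replicate 1, withdrawal replicate 2 or continuous replicate 2 the count was 3. The call of Degs1 was lost in each of these cases (highest adjusted p = 0.0830). The call of Hacd1 was lost without any 1 array other than continuous replicate 1 (highest adjusted p = 0.170).

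Electrons for the desaturases come through cytochrome b5 and its reductases. None of the 6 genes measured passed limma's adjusted threshold, against 9.40% of all probe sets, with a median of 0.30. Cyb5a, the microsomal cytochrome b5, had a change of 0.41 (adjusted p = 0.110), Cyb5b of 0.43 (0.101), and the reductases Cyb5r4 of 0.58 (0.0704), Cyb5r2 of -0.67 (0.104) and Cyb5r3 of 0.19 (0.482). At an unadjusted p under 0.05 the count was 4. The count of 0 became 1 without withdrawal replicate 3, with dim probe sets left out or with the replicate number as a block, 2 without continuous replicate 1, and 3 with array weights or with the trend and robust options.

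Genes that supply palmitate, or supply or remove malonyl-CoA, went both ways, with 3 of 8 lower and 1 higher (median -0.48). The whole array had 3.20% of probe sets lower and 6.21% higher. Me1, malic enzyme and a source of NADPH, rose by 1.53. Acss2, which activates acetate, fell by 0.85, Fasn, fatty acid synthase, fell by 0.77, and Mlycd, which removes malonyl-CoA, fell by 0.76. The count was 1 without withdrawal replicate 1, and 2 without withdrawal replicate 3 or with array-wise centring. The call of Fasn was lost without any 1 array other than continuous replicate 3 (highest adjusted p = 0.0965), and the calls of Fasn and Mlycd were lost with centring (0.0676 and 0.0627). Acss2 was lost without withdrawal replicate 1 (0.0563), and Mlycd without withdrawal replicate 1 or 3 (highest adjusted p = 0.0577). Of 6 acyl-CoA synthetases measured, Acsl4, which prefers arachidonate, rose by 1.12 (limma adjusted p = 0.00257), Slc27a5, the bile acid and very-long-chain ligase, fell by 0.70, and 4 did not pass. Slc27a5 did not pass with withdrawal replicate 1 left out (0.0933) or with centring (0.0542), and the count was then 1.

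**Figure D4:**
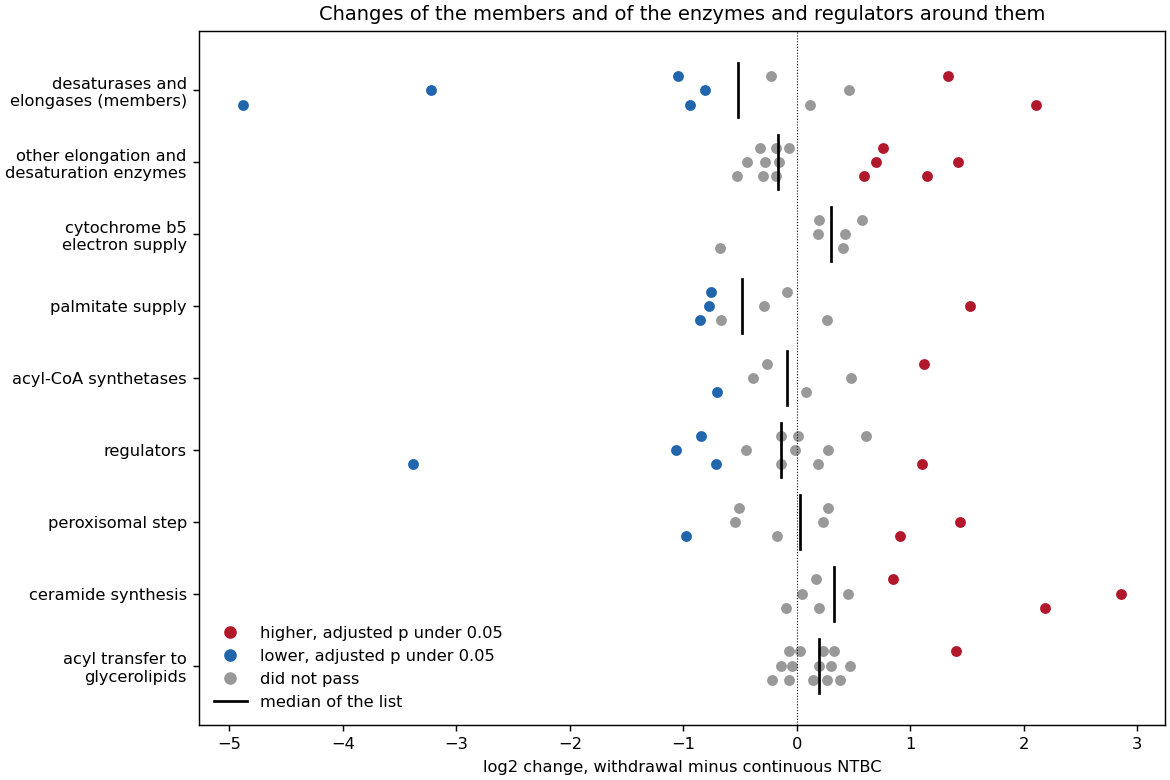
Log2 change (withdrawal minus continuous NTBC, horizontal axis) of the 10 members (top row) and of each measured gene of 8 lists around them, with the median of each list as a vertical line and colours for calls at an adjusted p under 0.05. The members span from -4.88 to 2.11, the other elongation and desaturation enzymes that passed lie between 0.59 and 1.42, and Cers6 at 2.85 is the highest point.

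Of 13 measured regulators, 4 were lower, 1 higher and 8 did not pass, with a median of -0.14. Among all probe sets 3.20% were lower and 6.21% higher. Thrsp, a lipogenic coactivator-like protein, fell by 3.38, Srebf1, the gene of SREBP-1, fell by 1.07 (limma adjusted p = 0.00565), Rxra, the partner of LXR and PPAR, fell by 0.85, and Ppargc1b, a coactivator, fell by 0.71. Pparg rose by 1.11. The carbohydrate-responsive factor Mlxipl (-0.45, adjusted p = 0.186), the LXR gene Nr1h3 (-0.02) and Ppara (-0.14) did not pass. The Ppargc1b call was lost with centring (0.101) and without withdrawal replicate 1 or 3 or continuous replicate 1 or 2 (highest adjusted p = 0.122).

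The peroxisome completes docosahexaenoate synthesis by shortening the elongated chain. There 1 of 8 measured genes was lower and 2 were higher (median 0.03), beside 3.20% lower and 6.21% higher of all probe sets. Scp2, a sterol carrier and thiolase, fell by 0.97, Ehhadh, the bifunctional enzyme, rose by 0.91, and Abcd2, a peroxisomal importer of very-long-chain acyl-CoA, rose by 1.44. The count was 1 without withdrawal replicate 1 or continuous replicate 2, and 5 with array weights or with dim probe sets left out. Ehhadh did not pass when withdrawal replicate 1, withdrawal replicate 3 or continuous replicate 2 was left out (highest adjusted p = 0.143). Abcd2 was lost without withdrawal replicate 1 or 2 or continuous replicate 2 or 3 (highest adjusted p = 0.171), with quantile normalization (0.0783) and with the trend and robust options.

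Among the enzymes that use acyl-CoA, ceramide synthesis had 3 of 8 measured genes higher and none lower (median 0.32). This stands beside 6.21% higher and 3.20% lower of all probe sets. Cers6, which prefers palmitoyl-CoA, averaged 9.75 ± 0.19 after withdrawal and 6.90 ± 0.10 with continuous NTBC (SD, n = 3 each), a change of 2.85 (limma adjusted p = 6.51e-06) or 7.23-fold. Sptlc2, a subunit of serine palmitoyltransferase, rose by 2.19 and Cers5, another palmitoyl-preferring synthase, by 0.84. Cers2, which takes the very long chains that Elovl1 makes, had a change of 0.20 and did not pass (adjusted p = 0.439). The Cers5 call was lost without withdrawal replicate 1 or 2 or continuous replicate 2 or 3 (highest adjusted p = 0.131). Of 15 genes that place acyl chains on glycerolipids, 1 passed, against 9.40% of all probe sets. It was Agpat5, which rose by 1.40 (limma adjusted p = 0.00290). Lpcat3, which puts polyunsaturated chains into phospholipids, had a change of -0.07. Without continuous replicate 1, or with array weights, the count was 2.

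Genes next to the members in the genome were looked at after their values were seen. Of 14 measured neighbours that are not members, 2 were higher and none lower, with changes from -0.52 to 2.07. Across all probe sets 6.21% were higher and 3.20% lower. Gclc, the catalytic subunit of glutamate-cysteine ligase and the neighbour of Elovl5 on chromosome 9, had 12.93, 12.91 and 12.94 after withdrawal, against 11.03, 10.52 and 11.03 with continuous NTBC. All withdrawal arrays of Gclc were higher, the opposite of Elovl5, with a change of 2.07 (SE 0.17, limma adjusted p = 7.39e-05). Nolc1, a nucleolar protein and the neighbour of Elovl3, rose by 0.86, and its call was lost with quantile normalization (adjusted p = 0.108) and without withdrawal replicate 1, withdrawal replicate 2 or continuous replicate 2.

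Marker genes bear on the tissue label and on other cells. Fah, mutated in both groups, averaged 7.66 ± 0.23 after withdrawal and 7.82 ± 0.42 with continuous NTBC, a point mutation that need not alter this level. Hpd, the target of NTBC, averaged 12.02 ± 0.06 after withdrawal and 12.66 ± 0.14 with continuous NTBC (SD, n = 3 each; change -0.64, limma adjusted p = 0.0210). Alb averaged 14.12 ± 0.01 after withdrawal and 14.17 ± 0.06 with continuous NTBC (SD, n = 3 each), and of 7 hepatocyte markers Cps1 was lower and 6 did not pass. None of 5 cholangiocyte, 8 macrophage, 8 stellate or 5 lymphocyte markers passed limma's adjusted threshold, against 9.40% of all probe sets. At an unadjusted p under 0.05 were 1 cholangiocyte, 1 macrophage, 3 stellate and 1 lymphocyte markers. The 4 erythroid markers listed were not measured. The summed linear signal of the cholangiocyte markers was 262 to 302 on the withdrawal arrays, against 248 to 286 on the continuous arrays. For the macrophage markers it was 909 to 1275 on the withdrawal arrays, against 947 to 1187 on the continuous arrays. In the same order, the stellate sums were 1673 to 2088 against 1361 to 1800. The lymphocyte sums were 158 to 175 against 172 to 224, and the neutrophil sums 86 to 115 against 105 to 137. The hepatocyte sums were 51926.6 to 56280.9 against 57194.5 to 61619.2. Endothelial markers were higher for Clec4g (0.81) and Lyve1 (1.07) of 6, with sums of 1795 to 1942 after withdrawal against 1133 to 1390 with continuous NTBC. The Lyve1 call was lost with quantile normalization and without 4 of the 6 arrays, all but continuous replicates 1 and 3 (highest adjusted p = 0.130). Of 6 adipocyte markers, Fabp4 rose by 2.32, while Adipoq, Plin1, Lep, Cidea and Ucp1 did not pass. The changes of these 5 were all below zero, from -0.36 (Lep) to -0.11 (Adipoq), and the median of the list was -0.18. The adipocyte sums were 447 to 593 after withdrawal against 211 to 262 with continuous NTBC, a rise that rests on Fabp4 alone. Retnlg, 1 of 5 neutrophil markers, fell by 0.65 (adjusted p = 0.0483), a call lost without any 1 array other than continuous replicate 1 (highest adjusted p = 0.169), with quantile normalization (0.0715), with centring (0.0717) and with the replicate number as a block (0.0587). The part of such cells in the rises of the Scd2/Mir5114 probe set and Elovl7 was not tested.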

How the data were processed

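Liver RNA of 6 samples was amplified from 100 ng with a whole-transcript kit and hybridised with biotin label, per the labels' protocols. The deposited table holds linear normalized intensities. The submitters' processing notes name Transcriptome Analysis Console. How background was corrected and which normalization was chosen are not given in the sources used here. The deposited intensities were turned into log2 and not normalized again. The table has no detection flags, so a low signal may be background and its fold compressed, and the number of arrays limits the precision.

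Gene names are those of the platform annotation (23521 probe sets with 1 symbol, 1814 with several, 9137 with none; 23328 of the first matched RefSeq genes of GRCm38.p6 by identifier, with 0 symbols changed). Other genes were taken from probe sets with 1 symbol. No source used here names the build of the array design, and coordinates are printed for RefSeq promoter windows alone. Pearson correlations over probe sets were 0.985 to 0.991 within the withdrawal group, 0.978 to 0.980 within the continuous group and 0.955 to 0.969 between them; probe sets are not independent replicates.

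The comparison used limma 3.58.1 under R 4.3.3 over the whole table (lmFit and eBayes, 10.2 total degrees of freedom, two-sided), with no filter. The fit was tested on simulated data. No set test was run: lists are described by counts and medians. The members and lists were chosen with earlier results of these data known. The members are all named; from each of 10 lists (106 of 114 genes measured) the 3 genes with the smallest p-values, or all that passed where 5 or fewer did, and for each member that passed the 2 genes nearest over 6 arrays, without predicted genes. Pigr, Srp54c, Mir1936 and Cd14, also nearest by this rule, are not described further. Arntl, Clock, Cyp4a12a, Mup20, Elovl4, Fads3, Scd3, Scd4, Tecr, Cyb5a, Cyb5r3, Mlxipl, Nr1h3, Ppara, Cers2, Lpcat3 and the genomic neighbours were chosen after their values were seen. Alternatives were quantile normalization, median centring, no dim probe sets, a replicate block, array weights, trend and robust options, probe sets with 1 symbol, a 2-fold threshold, raised low signals and each array left out.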

Additional observations from a re-analysis of the deposited data

How the results depend on the processing

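Of the single members' values under other settings, 64 of the 69 that were tested kept their direction and their side of the threshold, 4 (all Elovl6) passed where they had not, and Elovl1 reversed to -0.0717 with quantile normalization. Without dim probe sets, with a replicate block, trend and robust options or 1-symbol probe sets, the change itself is the same. Only the side of the threshold could move there. Raising low signals to the lower quartile had no test and moved only Elovl7 (1.33 to 1.25). Signals of the other members all lie above that quartile. With 1 array left out, 56 of 60 stayed as they were and 4 (all Elovl7) no longer passed. The count of lower members was 3 with a 2-fold minimum. The count of higher members was 1 with 1-symbol probe sets only, since the Scd2/Mir5114 probe set is then not tested, and 1 to 2 with 1 array left out. Over the whole array 3241 probe sets passed, 1178 (430 lower, 748 higher) with a 2-fold minimum, 5588 (2249 lower, 3339 higher) with array weights, and 1454 to 4210 (519 to 1581 lower, 935 to 2629 higher) with 1 array left out. Centring each array on its median gave 708 lower probe sets, and the median change was then 0.02. Of the list genes 37 passed, 23 (13 lower, 10 higher) with a 2-fold minimum; with 1 array left out the higher ones numbered 10 to 18. Among the left-out arrays, the lowest whole-array and list counts came without withdrawal replicate 1. Apart from the sets with fewer features or arrays, the cause was not tested. The sample titles do not say whether equal replicate numbers are paired. Deviations of same-numbered arrays correlated at 0.16, -0.12 and 0.22, which cannot settle this with 3 arrays a group. With a replicate block 3298 probe sets and 7 members (5 lower, 2 higher) passed. With 1 array left out, the within-array differences ranged from -5.54 to -5.18 (Scd1 minus Scd2/Mir5114), -0.29 to -0.17 (Fads1 minus Fads2) and 1.31 to 1.59 (Elovl6 minus Elovl5). Averaging the probe sets counted for a gene could give no other value, because 1 was counted for each member. The smallest p of the exact tests, 0.1, cannot pass the threshold, and the continuous signals of Elovl7 lie close to the lower quartile of their arrays.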
